A study of Drosophila melanogaster with 4 samples.

Results

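The cytoplasmic ribosomal protein genes of Drosophila melanogaster were examined in whole embryos that lack dSAP18, the fly SAP18 protein, beside embryos in which a transgene supplies it. Members were the array spots whose current gene symbol starts with RpL or RpS and a digit, or is RpLP0, RpLP1 or RpLP2, and that had a value on all 4 arrays. This gave 37 spots for 33 genes, 20 named for the large and 13 for the small ribosomal subunit. The arrays held 16416 spots, and 4312 named genes had a value on all 4 arrays. The mutant embryos, of w1118 background, carried the null dsap18 allele 117, made by mobilising a P-element, over Df(3R)sbd45, a deficiency that uncovers the gene. The control embryos had this same genotype with a dsap18-HA transgene added, so both groups carry the deficiency. All embryos were 0 to 24 h old, dechorionated, and came from flies kept at 25 °C. They were pooled whole, so fewer cells of a type and less RNA per cell cannot be told apart. There were 2 biological replicates from different extractions, each hybridised on 2 two-colour arrays with the dyes swapped, so n is 2.

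The cytoplasmic ribosome is built from a large and a small subunit, each a shell of ribosomal proteins around ribosomal RNA, and each protein is needed in about equal amounts. In the fly, losing a copy of many of these genes slows development and thins the bristles, the Minute phenotype. The early embryo translates with ribosomes and messenger RNA supplied by the mother before its own genes take over. SAP18 works in the nucleus, as a partner of the Sin3 corepressor with its histone deacetylase and of proteins that accompany splicing.

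The values are the authors' log ratios of the 2 channels of each array, taken as log2. Whether they are mutant over control or the reverse is not stated. The likely reading is mutant over control, since the design text calls the mutant RNA the sample and the other RNA a reference, and a negative ratio would then mean less transcript in the mutant. If the direction is the opposite, every sign below turns. The 4 columns correlated positively across all genes (Pearson r of 0.84 and 0.92 between swapped arrays and 0.67 to 0.74 between replicates, over genes, which are not independent), so the ratios were taken as already turned to 1 direction. If they had not been turned, a value repeated on swapped arrays would be a dye effect, and the swapped arrays would have to be turned before averaging. The targeted gene, Bin1 in current naming, had 0 spots named for it in the annotation used, so the labels could not be checked on it. The control label of 1 array of replicate 1 puts the transgene on chromosome 2, whereas X is given on the other 3 arrays, 1 of which carries the same RNA. Each array had values for 6537 to 7976 spots, and ratios over all genes were 1.80 times as wide in replicate 2 (SD 0.50) as in replicate 1 (SD 0.28). The number of arrays limits the precision.

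The 33 measured ribosomal protein genes, of 91 that fit the naming rule, differed little between the genotypes, with 2 large exceptions in opposite directions. The log2 ratio averaged -1.17 ± 0.45 (SD, n = 2) for RpL27 and 1.10 ± 0.30 for RpS21, while the other 31 members lay between -0.50 and 0.39. In the test of each gene (limma with Benjamini-Hochberg adjustment over all 4312 genes, passed at an adjusted p under 0.05), 3 of 33 members passed, which is 9.09%, against 23.2% of all genes. With a negative ratio 2 passed (RpL27 and RpLP2), where 11.8% of all genes did, and with a positive ratio 1 (RpS21), where 11.4% of all genes did. The smallest ratio of any gene that passed was 0.421 in size. A mean beyond 2-fold, with no array of the other sign, was found for 2 members, RpL27 and RpS21, or 6.06% of the 33, against 0.835% of all genes.

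**Figure D1:**
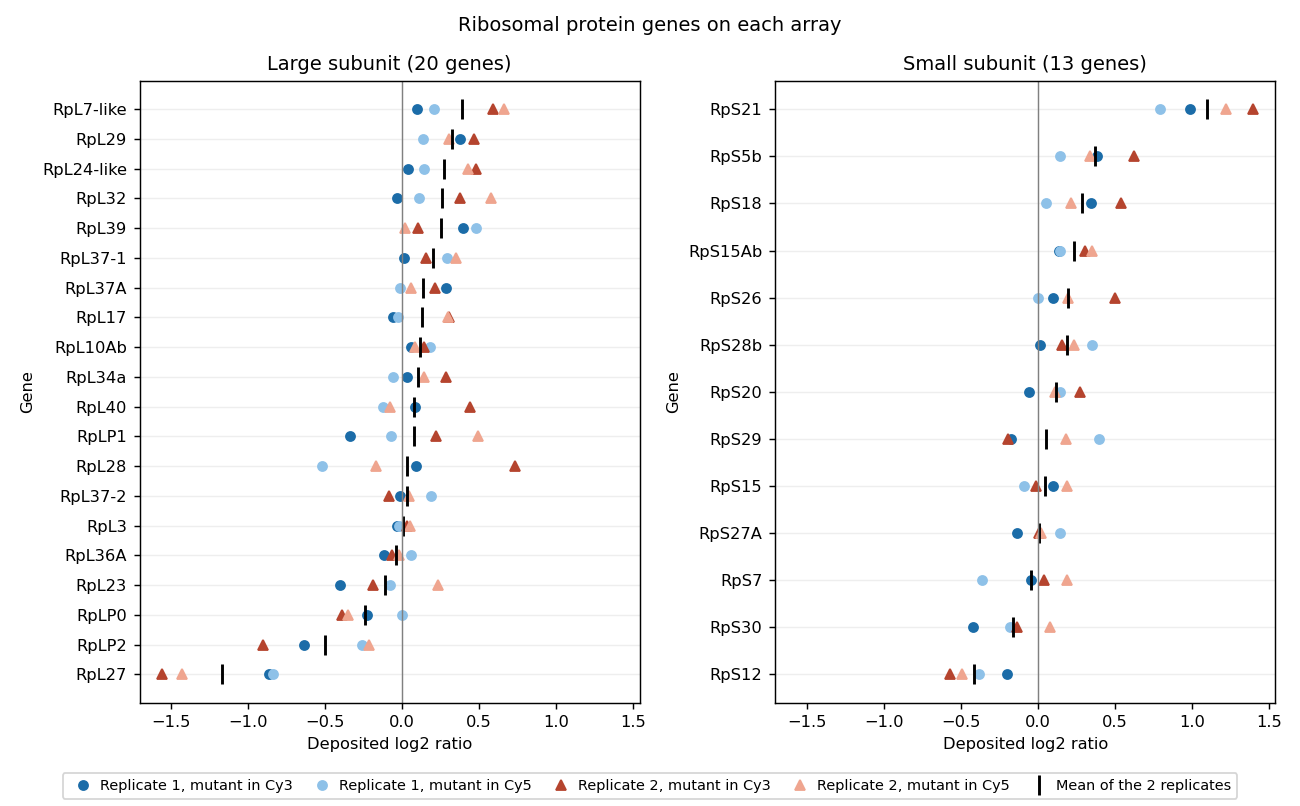
Deposited log2 ratio (x axis) of each of the 33 ribosomal protein genes (y axis), large subunit on the left and small subunit on the right, ordered by the mean. Circles are the 2 arrays of replicate 1, triangles the 2 arrays of replicate 2, dark symbols have the mutant in Cy3 and pale ones in Cy5, and the bar is the mean of the 2 replicates. RpL27 at -1.17 and RpS21 at 1.10 stand apart, and the other genes lie within -0.50 to 0.39.

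Most members had a slightly positive ratio. Of the 33 genes, 25 (75.8%) had a positive mean, against 50.9% of all genes. Their median was 0.10, with 0.04 in replicate 1 and 0.18 in replicate 2, an SD of 0.10 between the replicate medians. Over all genes it was 0.01, with -0.003 and 0.022 in the replicates. The gap between members and all genes was thus wider in replicate 2, and it was not tested. No array differed in sign for 14 of the 33 genes (42.4%), against 63.1% of all genes. A shared sign was thus less common among the members than among genes at large. The 30 members that did not pass lay between -0.41 and 0.39, with a median of 0.11, and for 11 of them no array differed in sign. Over all 33 members the SD over genes was 0.29 in replicate 1 and 0.44 in replicate 2, against 0.28 and 0.50 for all genes. For the 30 it was 0.18 and 0.24, narrower because the members that passed were left out.

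The large and the small subunit were close to each other. Genes were assigned to a subunit by symbol. The large one thus includes RpL7-like (0.39) and RpL24-like (0.27), relatives of yeast assembly factors. The median was 0.09 for the 20 large-subunit genes, of which 15 had a positive mean, and 0.12 for the 13 small-subunit genes, of which 10 did. By replicate the large-subunit median was -0.02 and 0.16, and the small-subunit median 0.05 and 0.19. The large minus small difference was -0.03, with -0.07 in replicate 1 and -0.04 in replicate 2, and on single arrays it ran from -0.15 to 0.03. It is a description, because the genes are not replicates and 2 replicates allow no exact permutation p below 0.5.

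**Figure D2:**
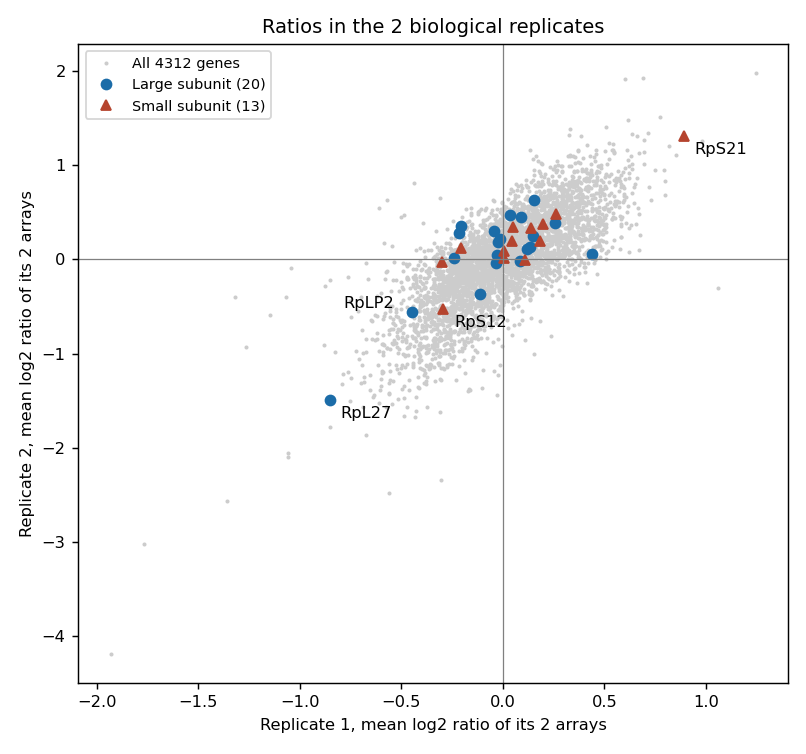
Mean log2 ratio of replicate 1 (x axis) against replicate 2 (y axis), each the mean of 2 swapped arrays, for all 4312 genes (grey), the 20 large-subunit genes (circles) and the 13 small-subunit genes (triangles). RpL27 and RpS21 lie at opposite ends along the diagonal, and RpLP2 and RpS12 lie below 0 in both replicates.

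RpL27 (NCBI gene 43103, chromosome arm 3R) encodes a protein of the large subunit. Its log2 ratio was -0.87 with the mutant in Cy3 and -0.84 with the mutant in Cy5 in replicate 1, and -1.56 and -1.43 in replicate 2. All 4 arrays were negative, and swapped arrays differed by 0.03 and 0.13, far less than the mean. The mean of -1.17 ± 0.45 is a 2.25-fold difference (limma adjusted p = 2.31e-06), and only 9 of the 4312 genes had a lower one, which puts RpL27 at rank 10 from the lowest. The next lowest large-subunit gene, RpLP2, was at -0.50. Had the deposited ratios not been turned, the estimate for RpL27 would be -0.04 (limma adjusted p = 0.658).

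RpS21 (NCBI gene 33487, arm 2L) encodes a small-subunit protein that binds sta, the fly relative of the laminin receptor, and its loss in fly larvae is known to overgrow the blood-forming organs. Its log2 ratio was 0.99 and 0.79 in replicate 1 (mutant in Cy3, then in Cy5) and 1.39 and 1.22 in replicate 2. All 4 arrays were positive, each above every array value of every other member. The mean of 1.10 ± 0.30 is a 2.14-fold difference (limma adjusted p = 4.29e-06), at rank 6 from the highest of 4312 genes. The next small-subunit gene, RpS5b, was at 0.37. With the swapped arrays turned the estimate would be 0.09 (limma adjusted p = 0.255).

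The stalk of the large subunit, formed by RpLP0 at its base and the acidic proteins RpLP1 and RpLP2, recruits the GTPases that drive translation. RpLP2 (NCBI gene 36855, arm 2R) was at -0.64 and -0.26 in replicate 1 and -0.90 and -0.21 in replicate 2, always lower with the mutant in Cy3. This difference between swapped arrays itself passed in the fit with the swapped arrays turned (-0.27, limma adjusted p = 0.0146). In the deposited direction the mean of RpLP2 was -0.50 ± 0.08 (1.42-fold, limma adjusted p = 0.0187). The call was lost with the mutant in Cy5 only (-0.24, limma adjusted p = 0.290), with the replicate as a random block (0.101) and without the array labelled with a chromosome 2 transgene (-0.41, 0.0886), so that without that array only 2 members passed. RpLP0 was at -0.23 and 0.00 in replicate 1 and -0.39 and -0.35 in replicate 2, a mean of -0.24 ± 0.18 that did not pass (limma adjusted p = 0.281). RpLP1 was at -0.34 and -0.07 in replicate 1 and 0.22 and 0.49 in replicate 2, and its mean of 0.08 ± 0.40 covers replicates of opposite sign, the widest spread of any member that did not pass.

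Among the other large-subunit genes RpL7-like, RpL29 and RpL24-like had the highest ratios. RpL7-like, whose yeast counterpart is a factor of large-subunit assembly rather than a part of the ribosome, was at 0.09 and 0.21 in replicate 1 and 0.59 and 0.66 in replicate 2, a mean of 0.39 ± 0.33 (limma adjusted p = 0.0797). RpL24-like, also the relative of a yeast assembly factor, was at 0.04, 0.14, 0.48 and 0.42 on the same arrays, a mean of 0.27 ± 0.26 (limma adjusted p = 0.228). Both assembly-factor relatives were positive on all 4 arrays and higher in replicate 2 than in replicate 1. RpL29, a protein of the outer face of the large subunit, was also positive on all 4 arrays, from 0.13 to 0.46, with a mean of 0.32 ± 0.09 (limma adjusted p = 0.143). None of these 3 genes passed.

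The rest of the large subunit lay closer to 0. RpL39, at the peptide exit tunnel, was at 0.25 ± 0.27, with higher values in replicate 1 (0.40 and 0.48) than in replicate 2 (0.10 and 0.02). RpL32, long used in flies as a reference gene for transcript levels under the name rp49, was at 0.26 ± 0.31, with -0.04 and 0.11 in replicate 1 and 0.38 and 0.58 in replicate 2. The 2 replicates thus ordered these genes differently. RpL23 was at -0.11 ± 0.18, RpL36A at -0.04 ± 0.01 and RpL10Ab at 0.11 ± 0.00. RpL34a (0.10 ± 0.16), RpL37A (0.14 ± 0.00) and RpL17 (0.13 ± 0.24) were near the group's median.

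At the low end of the small subunit stood RpS12 (NCBI gene 39480, arm 3L), a protein known in flies for its role in the elimination of Minute cells by their neighbours. Averaged over its 2 spots it was at -0.20 and -0.39 in replicate 1 and -0.57 and -0.49 in replicate 2, negative on all 4 arrays. The mean of -0.41 ± 0.17 did not pass (limma adjusted p = 0.0562), and it was the member closest to the threshold. It passed in 8 of 11 alternative settings, with limma adjusted p-values from 0.009 to 0.147. These settings reuse the same 2 replicates, so they are not separate support. The lowest value came from taking the 4 arrays as independent. The 2 spots differed. The first was at 0.16, -0.30, -0.37 and -0.60, a mean of -0.28, and the second at -0.57, -0.47, -0.77 and -0.39, a mean of -0.55 that passed when each of 4501 spots was tested on its own (limma adjusted p = 0.00797).

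RpS5b and RpS18 had the highest small-subunit ratios after RpS21. RpS5b, noted for expression in the germline, was at 0.38 and 0.14 in replicate 1 and 0.62 and 0.34 in replicate 2, a mean of 0.37 ± 0.15 (limma adjusted p = 0.0875). RpS18, of the head of the small subunit, was at 0.35, 0.05, 0.54 and 0.21 on these arrays, a mean of 0.29 ± 0.12 (limma adjusted p = 0.193). Both were positive on all 4 arrays, higher with the mutant in Cy3, and did not pass. RpS15Ab (0.23 ± 0.13) and RpS28b (0.19 ± 0.01) were also positive throughout, and RpS26, at the messenger RNA exit, was at 0.20 ± 0.21. RpS20 (0.12 ± 0.11) and RpS15 (0.05 ± 0.06) were near 0. RpS7 was at -0.05 and -0.36 in replicate 1 and 0.04 and 0.19 in replicate 2, a mean of -0.04 ± 0.23 over replicates of opposite sign.

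In 3 members the ribosomal protein is made as a fusion with ubiquitin or a ubiquitin-like protein that is then cut off. RpL40 was at 0.08 ± 0.14, RpS27A at 0.01 ± 0.01 and RpS30 at -0.16 ± 0.19, and none passed (lowest limma adjusted p = 0.489). RpS30 was at -0.42 and -0.18 in replicate 1 and -0.13 and 0.08 in replicate 2, and each of the 3 genes had values of both signs.

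Several members belong to pairs of gene copies. RpL37-1 (arm X) was at 0.01, 0.29, 0.15 and 0.35 on the 4 arrays, a mean of 0.20 ± 0.07, and RpL37-2 (arm 2R) at -0.01, 0.18, -0.09 and 0.04, a mean of 0.03 ± 0.08, and this difference was not tested. Spots of such copies may share targets, and how far each spot tells them apart was not examined. The annotation names 47 spots of 38 ribosomal protein genes, and 5 of these genes had no spot with a value on all 4 arrays: RpL10Aa, RpL22-like, RpS10a, RpS19b and RpS28a. Each is a further copy of another ribosomal protein gene. RpS10a had a value on 1 array (0.49) and the other 4 genes on none. The rule that left spots empty is not given, so an empty value shows no absence. Another 53 of the 91 genes that fit the naming rule in the gene table had no spot that carried their name alone. Values on all 4 arrays were present for 37 of the 47 spots (78.7%), against 34.2% of all spots with 1 gene name.

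For the genes with several spots, spots of 1 gene could disagree in sign. RpL3, of the peptidyl transferase centre, had spots with means of 0.09, 0.14 and -0.21, the last negative on all 4 arrays, and the gene mean was 0.01 ± 0.05. The 2 RpL17 spots were close, at 0.15 and 0.10. The remaining 30 members rest on 1 spot each, RpL27, RpS21 and RpLP2 among them, so no second spot was there to set beside their values.

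Dye-swapped arrays were further apart for the ribosomal protein genes than for genes at large, as a description of these arrays. The median absolute difference between swapped arrays was 0.20 in replicate 1 and 0.15 in replicate 2 for the members, against 0.10 and 0.13 for all genes, and 13 of the 33 members (39.4%) were in the fifth of genes with the widest swap difference. RpL28 was the extreme member, at 0.09 and 0.73 with the mutant in Cy3 and -0.52 and -0.17 with the mutant in Cy5, so that its mean of 0.03 ± 0.35 covers both signs. RpS29 did the opposite, at -0.17 and -0.19 with the mutant in Cy3 and 0.40 and 0.18 in Cy5. RpL23 was also higher with the mutant in Cy5, by 0.33 and 0.42. Both replicates had the same direction of swap difference in 25 of 33 members, against 64.8% of all genes. In a fit with a dye term, 0 members and 0 of all genes passed for the dye (limma). There 3 members, RpLP2, RpL28 and RpS29, had an unadjusted p under 0.05 for it, against 1.23% of all genes. This does not show that dye differences were absent. If the ratios were already turned, the fit with the swapped arrays turned tests the swap difference of each replicate. In that fit, chosen after seeing the data, 149 of all genes and 4 members passed. The members were RpL28 (0.38, limma adjusted p = 0.00362), RpLP2 (-0.27, 0.0146), RpS29 (-0.24, 0.0178) and RpL23 (-0.19, 0.0376).

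**Figure D3:**
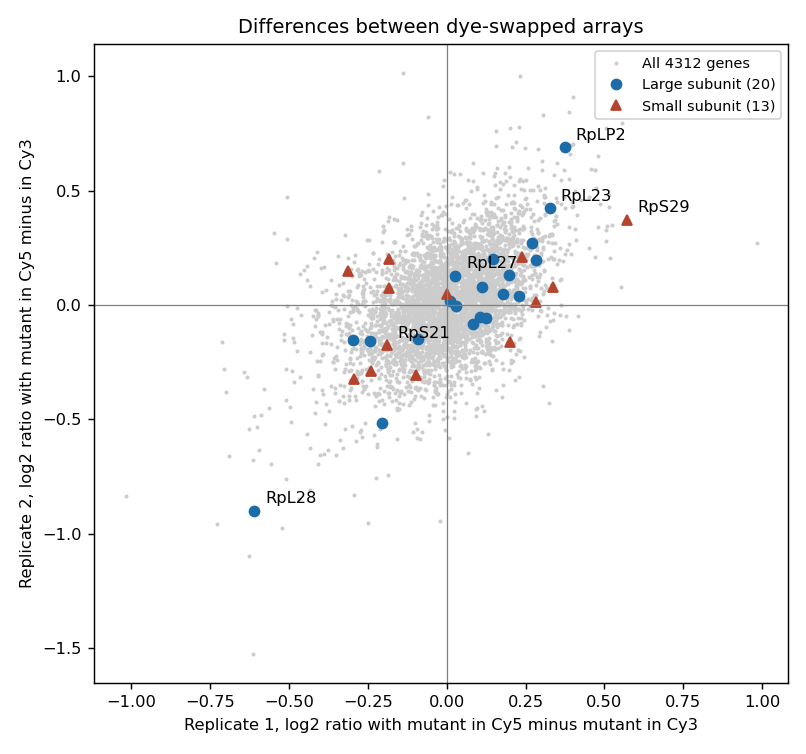
Difference in log2 ratio between the array with the mutant in Cy5 and the array with the mutant in Cy3, in replicate 1 (x axis) and replicate 2 (y axis), for all 4312 genes (grey) and the ribosomal protein genes (circles large subunit, triangles small subunit). RpL27 (0.03 and 0.13) lies near the centre, RpS21 (-0.19 and -0.18) lies to its lower left, and RpL28, RpLP2, RpL23 and RpS29 lie further out, each in the same direction in both replicates.

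Members came from all major arms, with 8 genes on 2L, 8 on 2R, 4 on 3L, 10 on 3R and 3 on X. The 3 that passed lie on 3R, 2R and 2L. Member medians by arm were 0.11, 0.14, -0.10, 0.08 and 0.19 in that order, with few genes behind each.

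The measured genes next to the 3 members that passed were set beside them. RpL27 lies directly between Idh3g, a subunit gene of mitochondrial isocitrate dehydrogenase, and CLS, the cardiolipin synthase gene, with 0 protein-coding genes between. Idh3g had a negative ratio on every array, from -0.59 to -0.46, with a mean of -0.54 ± 0.02 (limma adjusted p = 0.0113). CLS was also negative on every array, from -0.56 to -0.16, with a mean of -0.36 ± 0.14 that did not pass (limma adjusted p = 0.101). Thus 3 genes in a row had negative ratios on all 4 arrays, with RpL27, picked because it passed, the lowest. Of all 4312 genes, 1316 were negative on all 4 arrays. Beside RpS21, CG2991 was at 0.12 ± 0.15 and did not pass. On the other side CG3119, with 7 protein-coding genes between, was at 0.44 ± 0.01 and passed (limma adjusted p = 0.0414). Beside RpLP2, Dolk was at 0.23 ± 0.25 and RpS15, with 3 genes between, at 0.05 ± 0.06, and neither had the negative ratio of RpLP2. Whether neighbouring transcripts bind to the same spots was not tested.

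**Figure D4:**
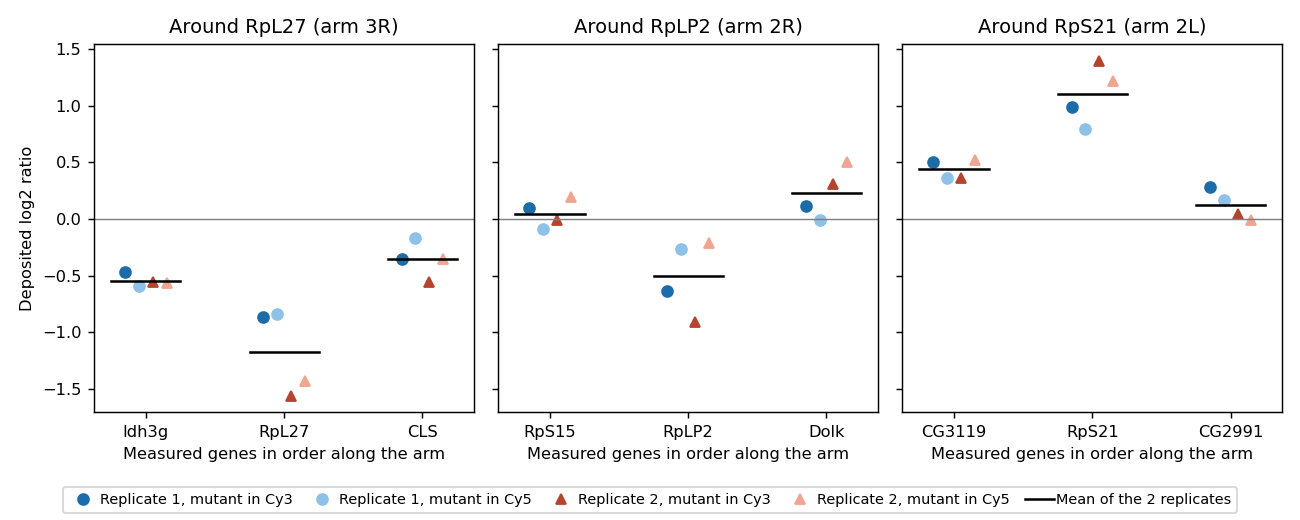
Deposited log2 ratio (y axis) of RpL27, RpLP2 and RpS21 and of the nearest measured gene on either side (x axis, order along the arm, not to scale). Symbols are single arrays as labelled and the bar is the mean of the 2 replicates. Idh3g (-0.54) and CLS (-0.36) lie below 0 with RpL27, while the genes around RpLP2 have means of 0.05 and 0.23.

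Other genes that make or regulate ribosomes were set beside the members. Of 53 listed genes of ribosome assembly, RNA polymerase I and growth control 27 were measured, and 17 of these had a positive mean (median 0.15, replicate medians 0.06 and 0.12). With a positive ratio 3 of the 27 passed, a share close to the 11.4% of all genes that did. With a negative one 0 passed, where 11.8% of all genes did. The other 24 did not pass. In both directions together, the share that passed was smaller than the 23.2% over all genes, a gap of few genes that was not tested. Those that passed were Polr1E, a subunit of RNA polymerase I, which makes ribosomal RNA (0.72 ± 0.54, limma adjusted p = 0.00177), Ns4, a GTPase of the nucleostemin family (0.52 ± 0.14), and Surf6, a nucleolar protein (0.50 ± 0.30). Fib, the nucleolar methyltransferase fibrillarin, was at 0.15 ± 0.16. The lowest were Mat89Ba (-0.30 ± 0.20) and Polr1A, the largest subunit of RNA polymerase I (-0.30 ± 0.11), so 2 subunits of 1 polymerase had opposite signs.

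The ribosomal proteins of mitochondria, encoded by a separate set of nuclear genes, had a median of -0.08 over 57 genes, with -0.14 in replicate 1 and -0.00 in replicate 2. Of these, 19 had a positive mean, which is 33.3%, beside 75.8% of the cytoplasmic set. With a negative ratio 2 passed, where 11.8% of all genes did, and with a positive one 0, where 11.4% of all genes did. The difference between the sets was not tested.

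Markers of embryonic tissues had ratios further from 0 than most ribosomal protein genes. All 11 measured genes of the larval cuticle and epidermis passed with a negative ratio (18 listed, median -0.74). So did 6 of 7 muscle genes (11 listed, median -0.58), where 11.8% of all genes passed with a negative ratio. Of 11 measured maternal and germline genes (15 listed, median 0.54) 6 passed with a positive ratio, where 11.4% of all genes did. These lists were chosen with earlier results of these data known, so their counts are a description. The sign of the ribosomal protein median (0.10) was that of the maternal list, and RpL27 and RpLP2 had the sign of the cuticle and muscle lists. The part of tissue or stage make-up in the ribosomal protein values was not tested.

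**Figure D5:**
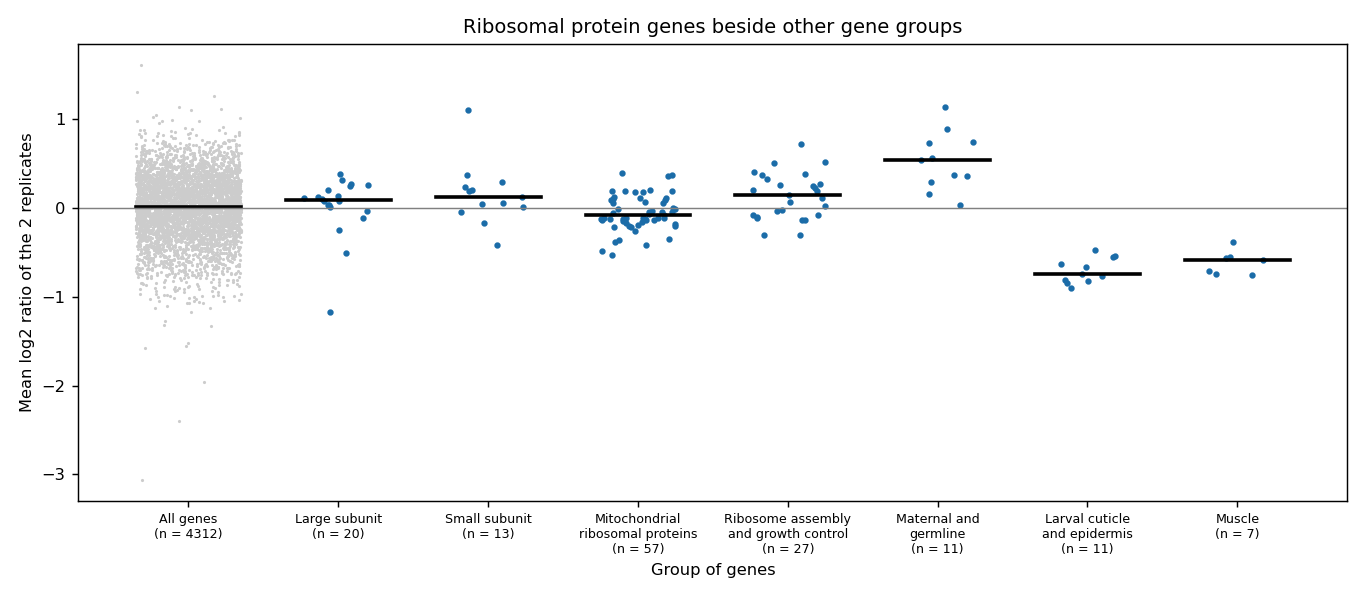
Mean log2 ratio of the 2 replicates (y axis) for single genes in each group (x axis), with all 4312 genes in grey and the group median as a bar. The large- and small-subunit medians (0.09 and 0.12) lie near 0, between the maternal and germline genes (0.54) and the cuticle (-0.74) and muscle (-0.58) genes.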

How the data were processed

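Values are the authors' deposited log ratios between channels, read as log2, and 39.8% to 48.6% of the spots of an array have one. Per the submitters' processing notes they used limma. Its log base, direction, background correction, normalization and the rule for empty spots are not stated in the labels. Spots with 1 gene symbol in the platform annotation (13163, while 101 had several and 3152 none) were renamed through the Release 6 RefSeq gene table (12532 by gene ID, 120 by accession, 511 kept). Spots of a gene were averaged, then the swapped arrays of a replicate, and limma 3.58.1 (R 4.3.3) compared the 2 resulting values per gene with 0 (two-sided, Benjamini-Hochberg over 4312 genes, 48.9 prior degrees of freedom). The procedure was run on simulated data, with independent genes drawn from the fitted prior and the same spread in both replicates. Ratios in these data were 1.80 times as wide in replicate 2, so that run does not test the calls made here. Errors are SDs of the 2 replicate means. The labels name different extractions and not separate cultures, so the spread between these samples may be technical. With 48.9 prior degrees of freedom, the p-values rest mostly on a spread pooled over all genes (prior SD 0.23). A gene's own 2 replicates add little to it. RpL27 (SD 0.45) and RpLP2 (SD 0.08) thus had similar standard errors, 0.17 and 0.16. Alternatives covered the arrays, dyes, filters, scaling and prior.

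The members and lists were chosen with earlier results of these data known. Members named with array values passed the test, were among the 3 highest or lowest of their subunit, have several spots or measured copies, or were singled out after their values were seen (RpL28, RpL23, RpS29, RpL32, RpL39, the stalk and the ubiquitin fusions). The other members are given by their means. Sequences and promoter motifs were not analysed here.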

Additional observations from a re-analysis of the deposited data

How the results depend on the processing

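RpL27 and RpS21 passed under each of 12 tested alternatives that keep the deposited direction (RpL27 from -1.21 to -1.13, RpS21 from 1.01 to 1.19). RpLP2 passed in 8 of 11, having been left out with 12 other members where the genes noisiest between swaps were dropped. Of the members that did not pass, 6 passed in at least 1 alternative. The count of 3 members was 9 (6 positive) with the 4 arrays as independent, when 2068 of all genes passed, 7 (4 positive) with a dye term (1571 of all genes), and 6 (3 positive) with arrays scaled to the same median absolute deviation (1568 of all genes). With the mutant in Cy5 only (1033 of all genes), 2 positive members passed, RpS21 and RpL7-like, and 2 negative ones, RpL27 and RpS12. With the replicate as a random block (1089 of all genes) 3 members passed, with RpLP2 lost (limma adjusted p = 0.101) and RpS12 gained (0.0379). Without the array labelled with a chromosome 2 transgene, chosen after seeing the data, 1 member passed with a negative ratio, when 750 of all genes passed. The large minus small difference was 0.0237 with the mutant in Cy3 only, 0.0146 with each spot on its own, -0.0038 without the noisiest genes, -0.0928 without the array with the chromosome 2 label, and from -0.0652 to -0.0358 with 1 replicate left out. Leaving out a replicate gave medians from 0.04 to 0.18 for all members, -0.02 to 0.16 for the large and 0.05 to 0.19 for the small subunit, with no test. With the swapped arrays turned, also chosen after seeing the data, 149 of all genes and 4 members passed, the median was -0.0129 (small subunit -0.00442), RpL27 and RpS21 no longer passed, and RpS29 reversed to -0.24 (limma adjusted p = 0.0178). If the deposited ratios were already turned, the genes that passed there did so for a difference between swapped arrays. Tested gene by gene without moderation, 0 members and 0 of all genes passed after adjustment. Before adjustment 3 members and 354 of all genes had a p under 0.05, against 6 and 1555 with limma. Those 3 were RpL10Ab, RpL37A and RpS28b, whose replicate SDs were very small (0.003, 0.0001 and 0.006). RpL27, RpS21 and RpLP2 were not among them.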
